A study of Mus musculus with 6 samples.

Results

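The TGF-β signal reaches the nucleus through 2 receptor kinases and the SMAD proteins. The type II receptor (TGFBR2) binds the ligand and activates the type I receptor (TGFBR1), with betaglycan (TGFBR3) as a co-receptor that presents ligand. The activated type I receptor phosphorylates SMAD2 and SMAD3, which join SMAD4 and bind DNA. The pathway is held back at several steps. SMAD7 competes for the type I receptor, SPSB1 is a ubiquitin ligase adaptor that targets the type II receptor, and SKI and SnoN (*Skil*) bind SMAD complexes on DNA and recruit corepressors. In CD8+ T cells, TGF-β is known for inducing CD103, the integrin chain that marks many tissue-resident memory T (TRM) cells. The 10 genes of these proteins, taken by name, are described here out of the 57126 genes in the deposited table.

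Bulk RNA was sequenced from cultured CD8+ T cells of OT-I mice, whose transgenic T cell receptor recognizes an ovalbumin peptide, with 3 samples per group harvested on day 6. Both groups were expanded from spleen and lymph node cells on nano-aAPCs, nanoparticles that carry the ovalbumin peptide on MHC class I and an antibody to CD28. TEff cells received IL-2, and TRM-like cells received IL-2, IL-15, and TGF-β, so that the added IL-15 and TGF-β cannot be told apart. The labels do not say whether the replicates came from separate mice, so that p-values measure the spread between these samples, which may be technical.

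Between 18319013 and 23622621 reads per sample were counted on genes. Reads were found on 24229 to 24908 genes per sample, except in TRM-like replicates 1 and 2, with 35130 and 35559. The pooled level of 1420 olfactory receptor genes, which T cells are not known to use, was 0.0236 and 0.0255 RPKM (scaled counts per kilobase of gene) in TRM-like replicates 1 and 2 and 0.00231 to 0.00499 RPKM in the others. All 7 CD8 T cell markers were present, at a summed 2350 to 2506 CPM (counts scaled to library size by edgeR's TMM method) in the TEff samples and 2952 to 4095 CPM in the TRM-like samples. Summed markers of CD4 T cells were at 0.0872 to 0.387 CPM, and those of red cells and platelets at 0 to 0.184 CPM. B cell markers summed to 5.94 to 6.78 CPM in TEff and 7.29 to 10.9 CPM in TRM-like samples. Most of this was *Cd79b* (4.57 to 8.39 CPM over all samples) and *Cd79a* (0.876 to 2.03 CPM). *Pax5* had reads in TRM-like replicates 1 and 2 alone, and *Ms4a1* in TRM-like replicate 2 alone. Myeloid markers summed to 1.23 to 3.09 and 0.277 to 7.56 CPM. *Fcgr3* made up most of this sum in TRM-like replicates 1 and 2, at 5.28 and 6.12 CPM, and was at 0.138 CPM in replicate 3. Stromal markers, nearly all *Pecam1*, summed to 46.7 to 63.9 CPM in TEff and 19.5 to 41.9 CPM in TRM-like samples. The NK list, nearly all *Klrb1c*, summed to 9.83 to 22.0 and 0.0922 to 8.77 CPM. The part of these differences in the results was not tested.

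The inhibitor genes *Spsb1*, *Skil*, and *Ski* and the co-receptor gene *Tgfbr3* rose in the TRM-like cells, and *Smad3* fell. *Spsb1* went from nearly no reads to 20.2 ± 7.27 CPM (SD, n = 3), *Skil* rose 3.70-fold, and *Ski* rose 2.22-fold, while *Smad3* was 7.87-fold lower. *Tgfbr1*, *Tgfbr2*, *Smad2*, *Smad4*, and *Smad7* did not pass the test. Thus 4 of the 10 genes were past the threshold as higher, against 1.52% of all genes tested, and 1 as lower, against 1.48%. The 10 genes were chosen with earlier results of these data known, so that comparisons with all genes describe the list and are not an independent test. To be past the threshold, a gene needed an adjusted p under 0.05 in edgeR's quasi-likelihood test over 26154 genes and a log2 fold change beyond 0.58 in either direction. All 10 genes passed the filter on low counts, and 9 of them had 10 or more counts in every sample. The median log2 fold change was 0.52 over the 10 genes and 0.02 over all genes tested. The groups did not overlap for 5 genes as higher, against 10.6% of all genes, and for 2 as lower, against 9.71%. In bulk RNA, fewer cells that express a gene and less RNA per cell cannot be told apart.

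**Figure D1:**
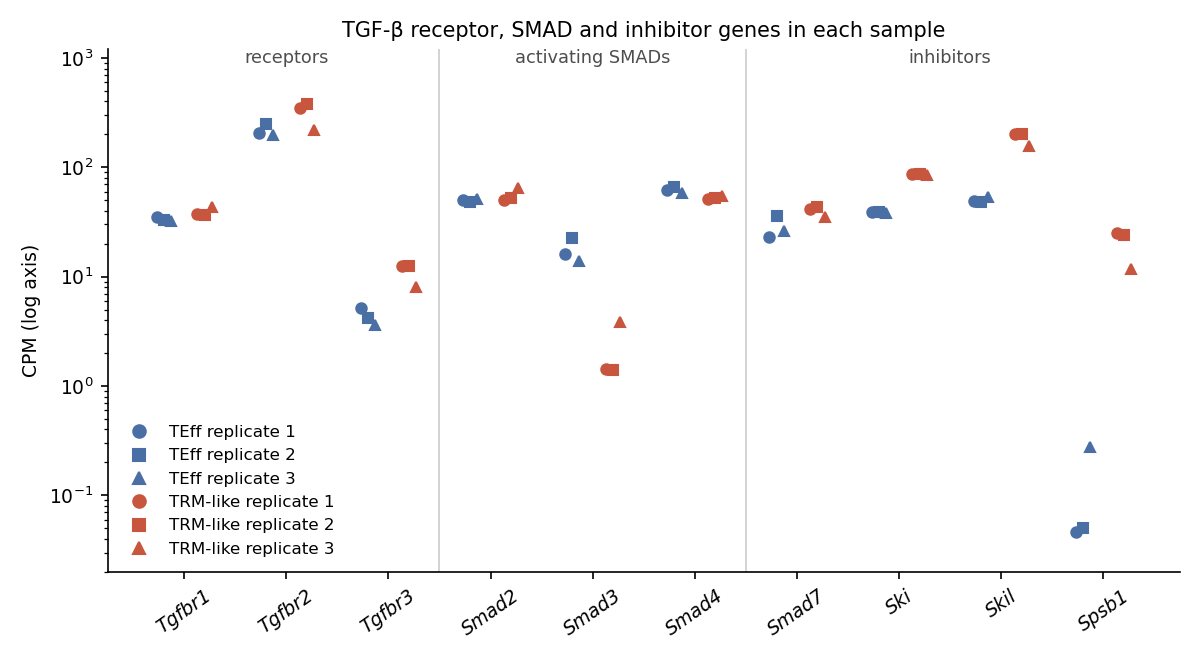
CPM of the 10 genes in each sample on a log axis, with TEff samples in blue and TRM-like samples in red, and a symbol for each replicate number. *Spsb1*, *Skil*, *Ski*, and *Tgfbr3* sit higher in every TRM-like sample and *Smad3* sits lower, while *Tgfbr2*, *Smad2*, and *Smad7* overlap between the groups.

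The 250 bases before the transcription start of *Spsb1*, *Skil*, *Ski*, *Tgfbr3*, and *Smad3* are shown here, since these 5 genes were past the threshold. They were read from GRCm39 at the start of each gene's canonical transcript in the GENCODE annotation and run 5′ to 3′ on the gene's strand. Capitals mark the SMAD-binding core CAGAC or its reverse complement.
Spsb1 (chr4:150039501-150039750, minus strand): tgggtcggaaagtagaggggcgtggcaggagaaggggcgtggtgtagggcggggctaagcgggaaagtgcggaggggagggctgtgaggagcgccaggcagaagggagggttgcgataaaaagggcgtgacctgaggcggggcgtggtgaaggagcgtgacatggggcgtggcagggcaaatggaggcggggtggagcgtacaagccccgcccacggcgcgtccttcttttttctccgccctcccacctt
Skil (chr3:31148566-31148815, plus strand): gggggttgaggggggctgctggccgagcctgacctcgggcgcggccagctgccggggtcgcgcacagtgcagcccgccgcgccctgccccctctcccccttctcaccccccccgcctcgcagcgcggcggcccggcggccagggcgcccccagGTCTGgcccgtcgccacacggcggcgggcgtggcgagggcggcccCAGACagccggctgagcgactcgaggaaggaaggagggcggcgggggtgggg
Ski (chr4:155307544-155307793, minus strand): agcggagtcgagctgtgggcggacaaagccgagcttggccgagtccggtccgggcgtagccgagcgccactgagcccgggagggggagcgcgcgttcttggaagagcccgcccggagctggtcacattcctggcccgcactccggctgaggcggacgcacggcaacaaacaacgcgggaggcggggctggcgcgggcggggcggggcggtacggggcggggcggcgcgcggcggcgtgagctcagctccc
Tgfbr3 (chr5:107437496-107437745, minus strand): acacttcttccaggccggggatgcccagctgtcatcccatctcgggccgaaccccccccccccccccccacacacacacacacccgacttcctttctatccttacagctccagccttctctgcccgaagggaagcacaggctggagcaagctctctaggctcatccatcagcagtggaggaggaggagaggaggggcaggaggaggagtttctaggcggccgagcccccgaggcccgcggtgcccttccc
Smad3 (chr9:63665477-63665726, minus strand): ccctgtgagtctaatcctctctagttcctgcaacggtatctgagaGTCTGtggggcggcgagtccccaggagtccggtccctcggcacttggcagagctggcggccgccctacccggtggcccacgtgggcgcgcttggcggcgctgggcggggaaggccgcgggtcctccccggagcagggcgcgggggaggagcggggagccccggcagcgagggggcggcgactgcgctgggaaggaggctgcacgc
The *Skil* stretch held 2 matches to CAGAC on either strand, the *Smad3* stretch held 1, and the *Ski*, *Spsb1*, and *Tgfbr3* stretches held 0. Among the 5 genes that did not pass, *Tgfbr2* had 2, *Tgfbr1* and *Smad4* had 1 each, and *Smad2* and *Smad7* had 0. Of the same stretch in 21770 protein-coding genes, 41.3% held at least 1 such match, so that the core is common at this length. The longer palindrome GTCTAGAC was found in 0.239% of the 21770 stretches, and among the 10 genes only before *Smad7*, from base -127 to base -120 relative to the start. The GC-rich SMAD motif GGCGC, searched on both strands with overlaps allowed, was in 34.8% of all stretches. It had 4 matches before *Skil*, 3 each before *Ski* and *Smad3*, 2 before *Spsb1*, and 0 before *Tgfbr3*. Before the genes that did not pass, it had 5 for *Smad2*, 4 each for *Smad4* and *Tgfbr1*, 2 for *Smad7*, and 0 for *Tgfbr2*. The AP-1 motif TGANTCA was in 6.17% of all stretches and in 0 of the 10. These matches describe letters in a short window and are not measured binding sites.

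*Spsb1* (ENSMUSG00000039911; chromosome 4 of GRCm39, 149866034 to 150039500) had the largest difference among the 10 genes. It had 1, 1, and 5 counts in TEff replicates 1, 2, and 3, and 570, 549, and 257 counts in TRM-like replicates 1, 2, and 3. The lowest TRM-like sample was thus far from any TEff sample, and TRM-like replicate 3 had the fewest reads of its group. Summed over the samples, 1376 counts against 7 gave a ratio of 174 after scaling to library size, with a 95% exact interval of 84.1 to 433 that covers counting error only. The fitted log2 fold change was 7.35 (SE 0.52 and edgeR adjusted p = 0.000209), and its size depends on the few TEff reads. Without TEff replicate 3, which held 5 of the 7 counts, it was 8.57, and in the other 5 fits that left out a sample it was 6.95 to 7.62, past the threshold in each. In the TEff samples *Spsb1* was at 0.0133, 0.0147, and 0.0802 RPKM, or 3.52, 2.94, and 24.8 times the level of the olfactory receptor genes in the same library. In TRM-like replicates 1, 2, and 3 it was 306, 273, and 1489 times that level. Replicate 3 had the lowest *Spsb1* level of the group, at 3.44 RPKM. Its olfactory receptor level was 0.00231 RPKM, against 0.0236 and 0.0255 RPKM in replicates 1 and 2.

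*Skil* (ENSMUSG00000027660; chromosome 3, 31148816 to 31176740), the gene of SnoN, was at 49.4, 48.4, and 53.4 CPM in TEff replicates 1, 2, and 3, and at 202, 200.2, and 157 CPM in TRM-like replicates 1, 2, and 3. *Skil* rose in all TRM-like samples, by a log2 fold change of 1.89 (95% interval 1.55 to 2.22, edgeR adjusted p = 0.000341). *Ski* (ENSMUSG00000029050; chromosome 4, 155238532 to 155307543), its paralog, was at 39.4, 38.6, and 38.1 CPM in the TEff samples and at 86.6, 86.5, and 84.6 CPM in the TRM-like samples. The spread within each group was small for *Ski*, and TRM-like replicate 3 stood with the others. Its log2 fold change was 1.15 (SE 0.11 and edgeR adjusted p = 0.00123). When any 1 sample was left out, *Ski* kept a log2 fold change of 1.14 to 1.17 and *Skil* of 1.82 to 1.99, and both genes stayed past the threshold.

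*Smad7* (ENSMUSG00000025880; chromosome 18, 75500374 to 75529006), the inhibitory SMAD, was the exception among the inhibitors. It was at 23.2, 35.8, and 25.9 CPM in the TEff samples and at 41.3, 43.2, and 35.3 CPM in the TRM-like samples. TEff replicate 2 was level with TRM-like replicate 3, and the groups overlapped. Its log2 fold change of 0.50 (95% interval 0.09 to 0.90, edgeR adjusted p = 0.234) did not pass, and it did not pass under any of the 16 alternatives. Of these, the replicate block gave an adjusted p of 0.0367 from edgeR, with a log2 fold change of 0.52, under the limit of 0.58. Leaving out TRM-like replicate 3 gave 0.0197 with a log2 fold change of 0.57.

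*Smad3* (ENSMUSG00000032402; chromosome 9, 63554049 to 63665476) was the only one of the 10 genes past the threshold as lower in the TRM-like cells. Its protein is one of the pair that the activated receptor phosphorylates. It was at 16.0, 22.8, and 13.9 CPM in TEff replicates 1, 2, and 3, and at 1.44, 1.40, and 3.87 CPM in TRM-like replicates 1, 2, and 3. Every TRM-like sample was below every TEff sample, and TRM-like replicate 3 was the highest of its group. The log2 fold change was -2.98 (SE 0.39 and edgeR adjusted p = 0.00448). Without TRM-like replicate 3 it was -3.63, and in the other 5 fits that left out a sample it lay between -3.10 and -2.73, past the threshold in each. In TRM-like replicates 1 and 2, *Smad3* was still at 12.0 and 10.8 times the olfactory receptor level of the same library.

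The other 2 SMADs of the signal did not pass the test. *Smad2* (ENSMUSG00000024563; chromosome 18, 76374327 to 76445180) was at 50.3, 48.1, and 51.0 CPM in the TEff samples and at 50.1, 52.5, and 65.0 CPM in the TRM-like samples. Its log2 fold change was 0.17, with a 95% interval of -0.15 to 0.48. *Smad4* (ENSMUSG00000024515; chromosome 18, 73769343 to 73836915), the partner that both share, was at 61.4, 66.6, and 58.1 CPM in the TEff samples and at 51.2, 52.0, and 54.0 CPM in the TRM-like samples. Each TRM-like sample was below each TEff sample for *Smad4*, by a log2 fold change of -0.24 (95% interval -0.51 to 0.03, edgeR adjusted p = 0.403). For both genes the interval lies within the limit of 0.58 on either side.

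The balance of *Smad2* and *Smad3* was also compared. Per length of gene, *Smad3* made up 34.9%, 44.4%, and 31.6% of the summed RPKM of *Smad2* and *Smad3* in TEff replicates 1, 2, and 3, and 4.62%, 4.30%, and 9.15% in TRM-like replicates 1, 2, and 3. The mean fell by 30.9 percentage points, from 37.0% ± 6.69 to 6.03% ± 2.71 (SD, n = 3 each). *Skil* made up 50.8%, 50.7%, and 53.5% of the summed RPKM of *Ski* and *Skil* in the TEff samples and 65.8%, 65.5%, and 60.3% in the TRM-like samples. Both shares gave p = 0.1 in a two-sided exact permutation test (adjusted p = 0.1 over these 2), the smallest value that 3 samples against 3 allow. These shares were chosen after the values of the genes were seen.

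*Tgfbr3* (ENSMUSG00000029287; chromosome 5, 107249402 to 107437623), the co-receptor gene, was at 5.17, 4.20, and 3.65 CPM in TEff replicates 1, 2, and 3, and at 12.4, 12.6, and 8.07 CPM in TRM-like replicates 1, 2, and 3. The groups did not overlap, and TRM-like replicate 3 was the lowest of its group. It rose by a log2 fold change of 1.34 (SE 0.23 and edgeR adjusted p = 0.0157). The log2 fold change stayed within 1.23 to 1.51 with each sample left out. Without any one of TEff replicates 1, 2, and 3 or TRM-like replicates 1 and 2, however, the adjusted p from edgeR was 0.0567 to 0.109, in fits with fewer samples, and it was 3.56e-05 without TRM-like replicate 3.

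*Tgfbr2* (ENSMUSG00000032440; chromosome 9, 115913361 to 116004800), the gene of the receptor that binds ligand, was at 204, 248, and 197 CPM in the TEff samples. It was at 347 and 376 CPM in TRM-like replicates 1 and 2 and at 217 CPM in replicate 3, within the TEff range. Its log2 fold change of 0.54 (95% interval 0.06 to 1.02) was not past the threshold (edgeR adjusted p = 0.281). Without TRM-like replicate 3 it was past it, at 0.73 (edgeR adjusted p = 0.000717), so that the call for *Tgfbr2* rests on that 1 library. In that fit 5 of the 10 genes were past the threshold as higher, against 6.38% of all genes tested, and 1 as lower, against 7.67%. *Tgfbr1* (ENSMUSG00000007613; chromosome 4, 47353134 to 47414931), the type I receptor gene, was at 35.2, 33.0, and 32.2 CPM in the TEff samples and at 37.2, 36.6, and 43.3 CPM in the TRM-like samples. The groups of *Tgfbr1* lay side by side without overlap, at a log2 fold change of 0.22 (95% interval -0.07 to 0.51).

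**Figure D2:**
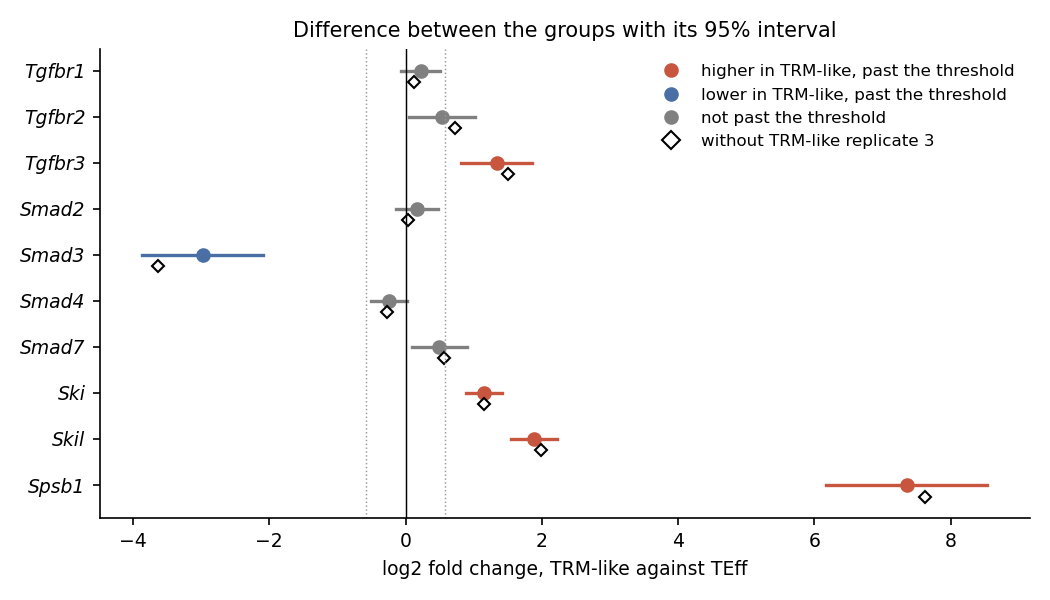
Log2 fold change (TRM-like against TEff) of the 10 genes with its 95% interval from edgeR, red or blue where past the threshold and grey where not, and an open diamond for the value without TRM-like replicate 3. Dotted lines mark the limit of 0.58. *Smad3* is the only gene past the threshold on the left, at -2.98, and the diamond of *Tgfbr2* lies beyond the limit at 0.73.

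TRM-like replicate 3 differed from replicates 1 and 2 of its group, and the 10 genes differed in how far they shared this. Replicates 1 and 2 were the samples with reads on 35130 and 35559 genes, against 24229 in replicate 3. For *Ski*, replicate 3 lay 97.2% of the way from the TEff mean to the mean of TRM-like replicates 1 and 2 on the log2 CPM scale. It lay 87.2% of the way for *Spsb1*, 81.8% for *Skil*, 74.9% for *Smad4*, 59.7% for *Smad3*, and 59.1% for *Tgfbr3*. For *Tgfbr1* it lay beyond replicates 1 and 2, at 262%, on a difference of 0.14 between their mean and the TEff mean. Neither *Tgfbr1* nor *Smad4* passed the test. Each percentage is relative to the gene's own difference, which was largest for *Spsb1*, so that a high percentage can hide a wide gap. *Spsb1* was at 24.9 and 24.0 CPM in TRM-like replicates 1 and 2 and at 11.9 CPM in replicate 3. Over the 589 genes past the threshold with 10 or more counts in every sample, the median was 85.3%, with quartiles at 63.3% and 112%. These genes were called in a fit that included replicate 3. For *Tgfbr2*, replicate 3 was 0.01 above the TEff mean on the log2 scale, against 0.69 and 0.81 for replicates 1 and 2.

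Ranked by level per length, the order of the 10 genes changed between the groups. In the TEff cells it ran from *Tgfbr2* at 26.4 ± 3.35 RPKM (SD, n = 3) and *Smad4* at 17.3 ± 1.20 RPKM down to *Smad3* at 3.45 ± 0.911, *Tgfbr3* at 0.713 ± 0.126, and *Spsb1* at 0.0361 ± 0.0382 RPKM. Between *Smad4* and *Smad3* stood *Skil*, *Ski*, *Smad7*, *Smad2*, and *Tgfbr1*, at 7.50 to 5.22 RPKM. *Smad7* overlapped both of its neighbours in this order, *Ski* and *Smad2*. In the TRM-like cells *Tgfbr2* led at 38.3 ± 10.3 RPKM and overlapped *Skil* at 27.7 ± 3.85 RPKM. *Ski* at 15.6 ± 0.205 RPKM stood just ahead of *Smad4* at 14.7 ± 0.404 RPKM. *Spsb1*, last in the TEff cells, was at 5.87 ± 2.11 RPKM and overlapped *Tgfbr1* at 6.08 ± 0.575, and *Smad3* was last at 0.439 ± 0.278 RPKM. RPKM uses the gene lengths of the deposited table. Separately, in a later GENCODE annotation with other exon lengths, 4 of the 10 genes share 0.921% to 5.04% of exon bases with another gene. These are *Tgfbr1*, *Tgfbr2*, and *Spsb1* with genes on the opposite strand and *Tgfbr3* with 1 on the same strand.

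**Figure D3:**
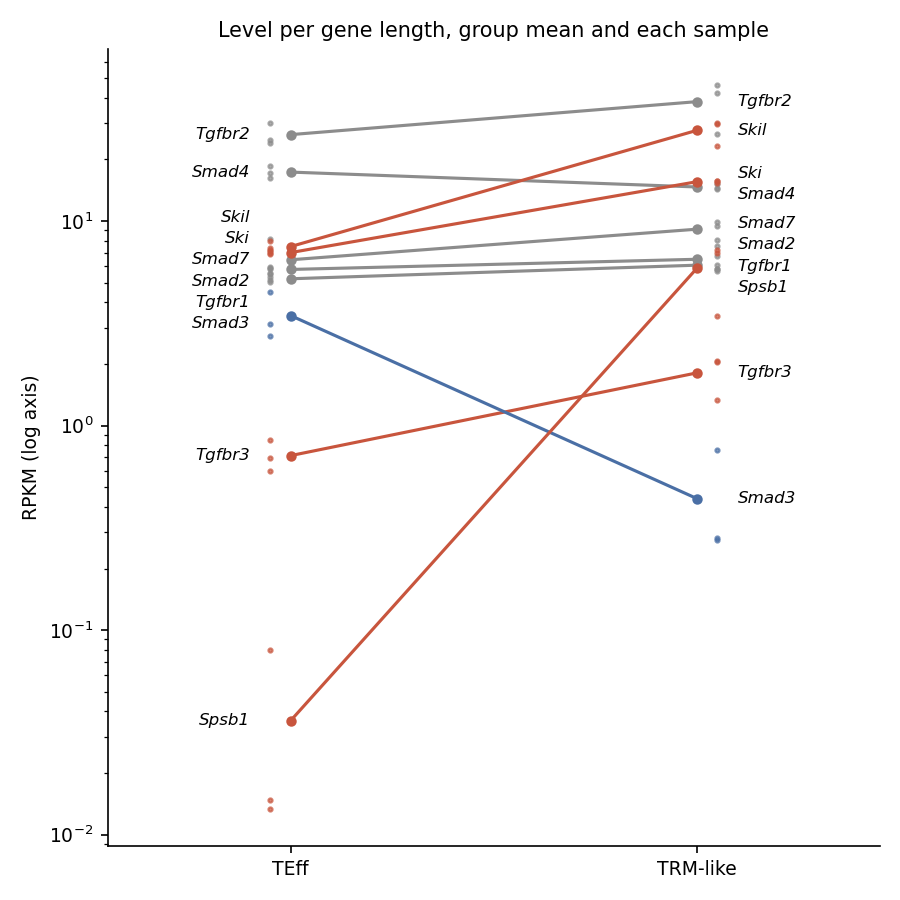
RPKM of the 10 genes on a log axis, with lines joining the group means and small dots for each sample, red where the gene was past the threshold as higher in TRM-like cells, blue where lower, and grey where neither. *Spsb1* climbs from 0.0361 to 5.87 RPKM and *Smad3* drops from 3.45 to 0.439 RPKM, while the grey lines are flatter.

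The 5 genes whose profile over the 6 samples was nearest to that of *Spsb1*, the gene of the 10 with the smallest p, were *Tgfb3*, *Cdh1*, *Igha*, *Ahr*, and *Itgae*. Nearness was the root mean square difference of log2 CPM (prior count 2), with each gene centred on its own mean. It was 0.53, 0.57, 0.97, 1.00, and 1.24 for the 5 genes, among 14822 genes with 10 or more counts in every sample. *Spsb1* itself did not meet this minimum, with 1, 1, and 5 TEff counts, so that genes as low in TEff were not compared. *Tgfb3* encodes a TGF-β ligand, *Cdh1* encodes E-cadherin, *Igha* is an immunoglobulin heavy chain constant gene, *Ahr* encodes the aryl hydrocarbon receptor, and *Itgae* encodes CD103. *Tgfb3* was at 0.503, 0.658, and 0.553 CPM in the TEff samples and at 84.0, 82.3, and 27.6 CPM in the TRM-like samples. Among the TRM-like samples, *Spsb1*, *Tgfb3*, *Igha*, and *Itgae* were lowest in replicate 3. *Ahr*, in contrast, was highest in replicate 3, at 54.7 CPM with 30.5 CPM as the lowest, and *Cdh1* was lowest in replicate 2, at 63.8 CPM against 72.9 and 66.2 CPM.

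Most other genes of the pathway did not pass the test. Of 68 genes, listed with earlier results of these data known, 63 were tested. Of these, 5 were past the threshold as higher (1.52% of all genes tested), and 1 as lower (1.48%). Their median log2 fold change was 0.01. Among the ligands, *Tgfb3* rose (log2 fold change 6.81, edgeR adjusted p = 0.000236), while *Tgfb1* was at 21.0 to 43.1 CPM in TEff and 21.9 to 31.4 CPM in TRM-like samples. *Tgfb2* was not tested, with counts in TRM-like replicates 1 and 2 alone.

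The feedback gene *Pmepa1*, whose protein keeps SMAD2 and SMAD3 from the receptor, was at 2.70, 2.03, and 2.65 CPM in the TEff samples and at 31.6, 31.8, and 20.8 CPM in the TRM-like samples. It rose 11.4-fold (log2 fold change 3.51, edgeR adjusted p = 0.000151). *Smurf2*, a ubiquitin ligase that works with SMAD7 on the receptor, rose from 28.7 ± 2.18 to 57.1 ± 3.01 CPM (SD, n = 3 each). These were 2 of the 21 tested genes for receptor and SMAD turnover, against 1.52% of all genes tested, and the other 19 did not pass. *Smurf1*, the paralog of *Smurf2*, was at 18.0 to 20.4 and 22.4 to 24.6 CPM and did not pass (edgeR adjusted p = 0.379).

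Among 10 tested receptors of activins and BMPs and related proteins, 1 rose, against 1.52% of all genes tested, and 9 did not pass. *Acvr2a*, an activin type II receptor gene, was at 6.81, 6.48, and 4.86 CPM in the TEff samples and at 25.1, 24.2, and 11.6 CPM in the TRM-like samples (log2 fold change 1.74, edgeR adjusted p = 0.0144). Without TEff replicate 1, 2, or 3 or TRM-like replicate 2 its adjusted p from edgeR was 0.0583 to 0.103. Of 14 nuclear partners, 1 fell, against 1.48% of all genes tested, and 13 did not pass. This was *Runx1*, a transcription factor of the RUNX family, which fell from 5.12 ± 2.00 to 0.678 ± 0.150 CPM (SD, n = 3 each). *Runx3* was at 183 and 161 CPM in TRM-like replicates 1 and 2 and at 77.4 CPM in replicate 3, within the 52.3 to 91.8 CPM of the TEff samples. Of 13 non-SMAD kinases and adaptors, 1 rose, against 1.52% of all genes tested. This was *Traf4*, a TRAF family adaptor gene, which rose 2.16-fold. The 3 tested genes among the other SMADs did not pass, and the smallest p was for *Smad9* (edgeR adjusted p = 0.604), which had 0 to 3 counts per sample.

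Genes that TGF-β is known to induce or repress, listed with earlier results of these data known, moved unevenly. Of 14 tested induced genes, 3 rose, against 1.52% of all genes tested, and 11 did not pass. *Itgae* was at 22.9, 30.0, and 20.1 CPM in the TEff samples and at 707, 742, and 284 CPM in the TRM-like samples. *Ccr8*, a chemokine receptor gene, rose from 0.528 ± 0.190 to 11.1 ± 4.55 CPM (SD, n = 3 each), and *Nedd9*, a scaffold protein gene, rose 1.73-fold. *Nedd9* lost the threshold without TEff replicate 1, 2, or 3 or TRM-like replicate 2 (edgeR adjusted p = 0.0528 to 0.0959).

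Of 13 tested genes that TGF-β is known to repress, 3 fell, against 1.48% of all genes tested, and 1 rose, against 1.52%. *Gzmb*, the gene of granzyme B, fell from 1943 ± 443 to 516 ± 2.76 CPM, and *Prf1*, the gene of perforin, fell from 39.7 ± 8.15 to 6.21 ± 1.42 CPM (SD, n = 3 each). *Eomes*, a T-box transcription factor gene, fell 4.26-fold. *Cx3cr1*, a chemokine receptor gene, rose instead, from 0.574 ± 0.0815 CPM in the TEff samples to 11.4, 11.0, and 1.43 CPM in TRM-like replicates 1, 2, and 3 (edgeR adjusted p = 0.0254). Its call held in 1 of the 6 fits that left out a sample, the one without TRM-like replicate 3. Without any other sample the adjusted p from edgeR was 0.0556 to 0.156.

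**Figure D4:**
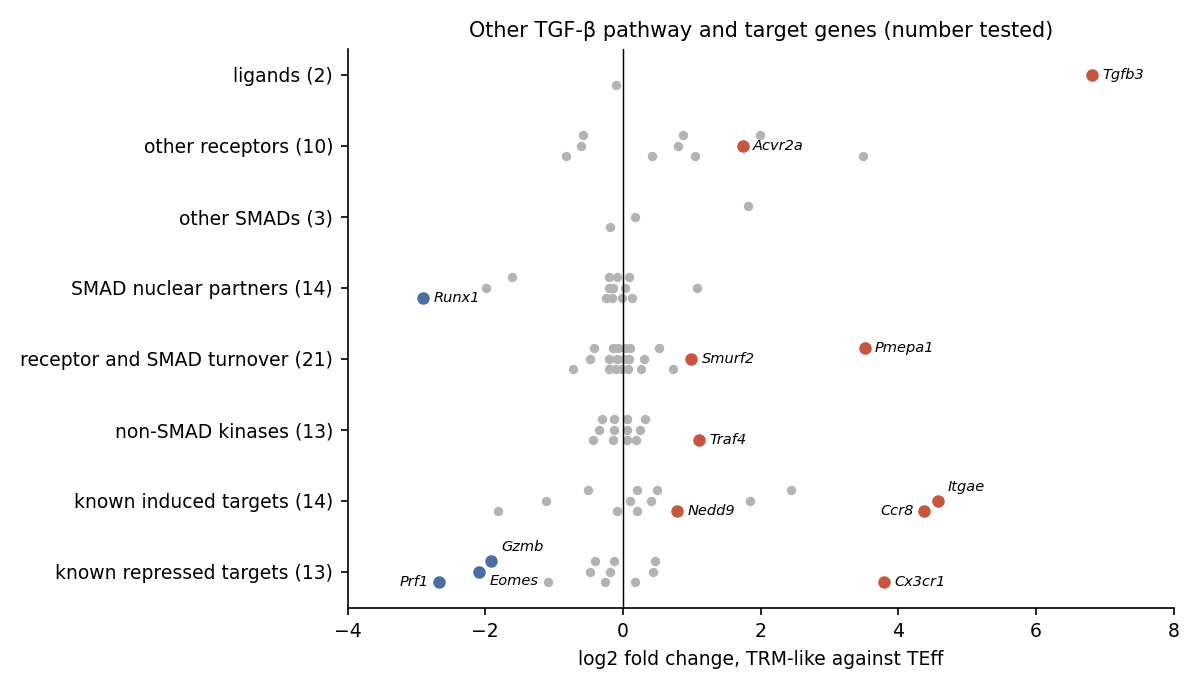
Log2 fold change (TRM-like against TEff) of each tested gene in the lists of pathway and target genes, with the number tested in parentheses, red where past the threshold as higher, blue where lower, and grey where not past it. *Tgfb3* at 6.81 lies farthest to the right, and the grey points reach as far as *Acvr1c* at 3.49. *Acvr1c* had very few reads, with 0, 0, and 1 counts in the TEff samples and 6, 9, and 2 in the TRM-like samples.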

How the data were processed

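Bulk RNA sequencing of 6 samples was analysed, with groups and replicate numbers from the sample labels. The authors used Cutadapt 4.8 for trimming and Rsubread for mapping and counting, with GENCODE's GRCm39 reference. They deposited the raw count of each gene, not normalized, beside its length. The strand setting and the handling of multiply mapped reads are not given in the sources used here, so a gene and its antisense partner may share reads. Of 57126 gene identifiers, 56620 had a symbol in a later GENCODE annotation of the same build.

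The 26154 genes detected in 3 or more samples entered edgeR's quasi-likelihood test (version 4.0.16, glmQLFit then glmQLFTest, after TMM scaling; R 4.3.3), and p-values were adjusted over all of them by Benjamini-Hochberg. Standard errors are the log2 fold change over the square root of F. RPKM was computed from these counts, the deposited lengths, and TMM library sizes. DESeq2 1.42.0 and limma 3.58.1 served as alternatives. The paper's methods name a batch removal for plots without naming the batch, and none was removed here.

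The members and lists were chosen with earlier results of these data known. Named in the text are the 10 genes, each list gene past the threshold, the gene of smallest p in a list with none, and the 5 nearest profiles. *Tgfb1*, *Tgfb2*, *Acvr1c*, *Smurf1*, *Runx3*, and the named markers were added after their values were seen.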

Additional observations from a re-analysis of the deposited data

How the results depend on the processing

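Of the 158 alternative values for the 10 genes, 152 kept their direction and their side of the threshold, 5 lost it (*Tgfbr3* with a sample left out), 1 gained it (*Tgfbr2* without TRM-like replicate 3), and 0 reversed. *Spsb1* had 14 alternatives, since it lacks 10 counts in every sample. The 4 genes called higher were 3 over genes with 10 counts in every sample, with and without the replicate block, and 3 to 5 with a sample left out, and the 1 called lower stayed 1 throughout. For the 13 listed genes past the threshold, 192 of 206 values stayed past it, 14 did not, and 0 reversed.

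The 6 other pathway genes called, against 3.01% of all genes tested, were 10 with DESeq2 (against 4.8%) and 12 with no filter (against 4.42%). They were 13 with the replicate block (against 7.78%), and 10 with that block over genes with 10 counts in every sample (against 6.09%). With a sample left out they were 5 to 13, and the 7 target genes called were 5 to 11. Both were highest without TRM-like replicate 3 (13 and 11, against 14% of all genes tested). Without any other sample that share was 1.04% to 1.8%. Over all genes, 786 were called, 3579 without TRM-like replicate 3, 263 to 443 without any other sample, 1256 with DESeq2, 1868 with no filter, and 2034 with the replicate block. The replicate block changed no call among the 10 genes. Same-numbered samples gave correlations of -0.29, 0.31, and 0.39 in their deviations from the group means, and TEff replicate 2 correlated best with TRM-like replicate 1 (0.52), so that the numbers were not taken to pair the samples. The order by level per length, over the mean of all 6 samples, was the same for all 10 genes with library totals alone and in TPM. Both scale every gene of a sample by a common factor, so that this order could hardly change. The orders within each group were not compared in this way. With 1 to 5 TEff counts, depth limits the size of the *Spsb1* difference.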
